A study of Mus musculus with 13 samples.

Results

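The interstitial matrix genes described here are 43 listed genes for the collagens, glycoproteins, proteoglycans and cross-linking enzymes of connective tissue in mouse rectum. Members were fixed by name, and each gene was read from the array feature (transcript cluster) with the highest mean among those annotated to that gene alone. Members and the other gene lists were chosen with earlier results of these data known. Their counts beside the shares of all genes are therefore descriptions and no independent support. By that rule 41 of the 43 were measured, out of 19938 genes in all. Fbn1 and Loxl2 were not analysed here, because no feature was annotated to either of them alone.

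Total RNA of 13 rectal tissue pieces was measured on whole-transcript arrays (Affymetrix Mouse Gene 1.0 ST), with 1 array for each piece. The design compares adenocarcinoma (5 arrays), the inflamed mucosa beside it (4) and normal mucosa (4) in a study of mice that lose α6 integrin, a laminin receptor subunit, from the intestinal epithelium. The mutant mice are labelled α6fl/fl Villin-Cre, floxed for α6 integrin and carrying a Cre recombinase driven by the Villin promoter, which is active in intestinal epithelial cells and not in the connective tissue cells that make most interstitial matrix. The genotype label of the normal samples is the same, although the source label calls them controls, and they are treated as controls here. The labels name no agent, and both sexes were used. Adenocarcinomas 1, 2, 3, 4 and 6 came from mice of 53, 60, 60, 64 and 80 weeks, inflamed mucosa 1 to 4 from mice of 53, 60, 60 and 64 weeks, and normal mucosa 1, 2, 4 and 6 from mice of 53, 60, 64 and 70 weeks. Tumour and inflamed tissue were cut by hand out of frozen sections of rectal prolapses after a pathologist had located the tumours, whereas normal mucosa was scraped from opened rectum. A section holds whatever lies under the epithelium, so in both comparisons with normal mucosa the disease and the way of collecting tissue cannot be told apart. The labels do not say whether each array is a separate mouse, so p-values measure the spread between these arrays.

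Interstitial matrix is laid down mainly by fibroblasts and smooth muscle cells. Fibrillar collagens assemble into fibrils in which collagens V and XI set the diameter, fibril-associated collagens and small leucine-rich proteoglycans bind to the fibril surface, and lysyl oxidases cross-link the finished fibril. Glycoproteins such as fibronectin, tenascin-C and periostin connect fibrils with cells, and elastic fibres are made of elastin on a scaffold of microfibrils.

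Values are the deposited log2 expression levels, on which a difference of 1 is a doubling of the level. Differences are given with the standard error (SE) of the fit, and a gene was called where limma's Benjamini-Hochberg adjusted p over all 19938 genes was below 0.05. Array medians lay between 6.41 and 6.59. Transcripts that should be absent by sex (Xist on male arrays, Y-linked genes on female arrays) read up to 5.57, so levels below that value cannot be told from background. Epithelial markers averaged between 11.51 and 11.90 on every array, so gut epithelium was present in all 3 groups. Fibroblast markers averaged 6.29, 6.34, 6.29 and 6.79 on normal arrays, against 7.71 to 8.08 on inflamed and 7.71 to 8.16 on tumour arrays. Smooth muscle markers averaged 6.92, 7.10, 6.68 and 7.92 on normal arrays, 9.86 to 10.88 on inflamed and 8.36 to 8.61 on tumour arrays, so their level in tumours was between those of the other groups on all 13 arrays. The part of either cell type in the results below was not tested. In pieces of whole tissue, fewer cells of a type and less RNA per cell cannot be told apart. With the arrays as deposited, 2730 genes were called higher and 2592 lower in inflamed than in normal mucosa, and with arrays centred on the median of the genes tested 1875 and 9510. The same counts for tumour against normal mucosa were 3266 and 3867 as deposited and 2491 and 8612 when centred, and for tumour against inflamed mucosa 581 and 839 as deposited and 728 and 694 when centred. With arrays centred on their own medians the counts in inflamed against normal mucosa were 2408 and 3139, and with cyclic loess 2939 and 2053. In tumour against normal mucosa they were 3087 and 3787, and 3400 and 2911. Between tumour and inflamed mucosa they were 555 and 687, and 593 and 862.

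Matrix genes were higher in both kinds of prolapse tissue than in normal mucosa. In inflamed mucosa 36 of the 41 were called higher than in normal mucosa, 0 lower and 5 were not called, beside 13.7% of all genes called higher and 13% called lower. In adenocarcinoma 33 were called higher than in normal mucosa, 0 lower and 8 were not called, beside 16.4% of all genes called higher and 19.4% called lower. The median difference over the 41 was 1.77 for inflamed and 1.61 for tumour tissue, where the medians of all genes were -0.09 and -0.10. These comparisons share the 4 normal arrays, so their values are set side by side and are not independent. Inflamed arrays lay wholly above normal arrays in 35 members, beside 12% of all genes, and wholly below in 1, beside 15.5%. Tumour arrays lay wholly above normal arrays in 30 members, beside 13%.

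Between tumour and the inflamed mucosa next to it, the mean level of the set overlapped while single members differed in both directions. The mean over the 41 genes was 8.49, 8.67, 8.70, 8.88 and 8.72 in the tumours and 8.36, 8.80, 8.77 and 8.72 in inflamed mucosa, with 6.56, 6.79, 6.61 and 7.31 in normal mucosa. Tumour and inflamed arrays overlap in this mean and all lie above the normal arrays. Gene by gene, 11 members were called higher in tumour than in inflamed mucosa, beside 2.91% of all genes, and 5 were called lower, beside 4.21%. The median difference over the members was 0.08, and over all genes it was -0.01. Tumour arrays lay wholly above inflamed arrays in 12 members, beside 5.27% of all genes, and wholly below in 4, beside 6.51%. All of the members called higher were collagen chains apart from Tnc and Lox, and the members called lower were Col14a1, the microfibril gene Mfap5 and the small leucine-rich proteoglycans Lum, Aspn and Ogn.

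**Figure D1:**
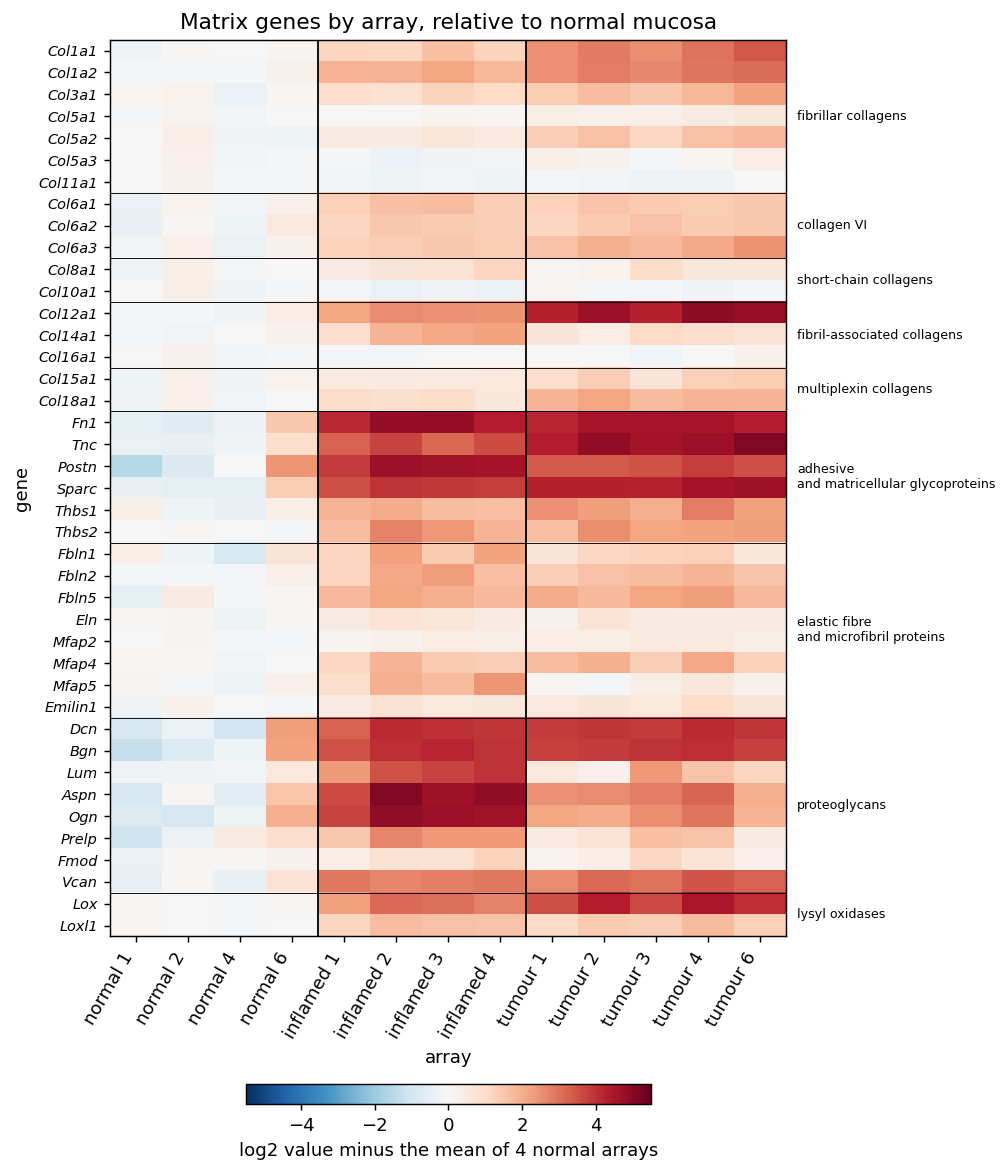
Log2 expression of the 41 measured matrix genes on each of the 13 arrays, with genes in rows grouped by role and arrays in columns grouped by tissue; colour gives each value minus the gene's mean over the 4 normal arrays. Most rows are raised on all inflamed and tumour arrays, and normal mucosa 6 stands apart from the other normal arrays in Fn1, Postn, Dcn and Bgn.

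Across the 3 comparisons, 10 members were called higher in inflamed than in normal mucosa, higher in tumour than in normal mucosa and higher again in tumour than in inflamed mucosa. They were Col1a1, Col1a2, Col3a1, Col5a2, Col6a3, Col12a1, Col15a1, Col18a1, Tnc and Lox. Another 4 members, Col14a1, Lum, Aspn and Ogn, were above normal mucosa in both tissues and lower in tumour than in inflamed mucosa. Mfap5 was called higher than normal in inflamed mucosa alone and was lower in tumour than in inflamed mucosa. Col5a1 was called higher in tumour than in either other group. A further 18 members were above normal in both tissues with no call between tumour and inflamed mucosa, and Col8a1, Prelp and Fmod were called in inflamed against normal mucosa alone. Col5a3, Col11a1, Col10a1 and Col16a1 were not called in any comparison.

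To show the start regions of genes from both of the opposed patterns, the 250 bases before the first listed start are printed for Col1a2 and Tnc, which were higher in tumour than in inflamed mucosa, and for Aspn and Ogn, which were lower. Sequences are from RefSeq, build GRCm38.p6, read 5′ to 3′ on the strand of the gene. RefSeq start regions were matched for 29 of the 43 genes. Capitals mark TATAAA (the core of a TATA box) and CCAAT (a box bound by the factor NF-Y), searched on both strands, so that the reverse complements TTTATA and ATTGG are in capitals too.
Col1a2, chr6:4505368-4505617, plus strand: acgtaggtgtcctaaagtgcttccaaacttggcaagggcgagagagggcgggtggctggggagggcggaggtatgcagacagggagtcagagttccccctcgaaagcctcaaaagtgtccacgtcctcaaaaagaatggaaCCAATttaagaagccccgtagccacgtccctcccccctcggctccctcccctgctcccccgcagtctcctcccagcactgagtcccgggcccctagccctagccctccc
Tnc, chr4:64047016-64047265, minus strand: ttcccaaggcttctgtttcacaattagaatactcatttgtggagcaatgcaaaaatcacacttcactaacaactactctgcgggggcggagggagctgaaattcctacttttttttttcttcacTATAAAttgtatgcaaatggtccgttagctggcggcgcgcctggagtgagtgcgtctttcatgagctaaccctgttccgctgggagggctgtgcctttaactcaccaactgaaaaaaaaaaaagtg
Aspn, chr13:49544193-49544442, plus strand: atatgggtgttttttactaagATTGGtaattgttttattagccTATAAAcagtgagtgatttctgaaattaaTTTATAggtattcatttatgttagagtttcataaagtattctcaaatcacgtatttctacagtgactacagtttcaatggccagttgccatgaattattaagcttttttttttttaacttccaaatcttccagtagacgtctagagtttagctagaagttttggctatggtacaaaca
Ogn, chr13:49607765-49608014, plus strand: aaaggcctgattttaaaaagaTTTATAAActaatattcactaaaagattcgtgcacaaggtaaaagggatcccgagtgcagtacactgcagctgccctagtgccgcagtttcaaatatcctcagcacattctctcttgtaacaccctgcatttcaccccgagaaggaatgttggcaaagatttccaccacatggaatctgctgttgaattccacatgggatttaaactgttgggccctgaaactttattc
Col1a2 held a CCAAT whose match began 109 bases before the start. Tnc held a TATAAA at 126 bases. Aspn held TATAAA at 207 and 178 bases and CCAAT at 229 bases, and Ogn held overlapping TATAAA matches at 229 and 227 bases. Over the 250 bases before the start, TATAAA was found in 6 of the 29 genes (20.7%) and in 13% of 27025 start regions. CCAAT was found in 10 of 29 (34.5%) and in 34.5% of all, and the AP-1 motif TGANTCA in 1 of 29 (3.45%, Col6a1) and in 6.87% of all. Matches are letters in this window and say nothing of whether a factor binds there.

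Fibrillar collagens, the rod-like chains of the fibrils themselves, were mostly higher in tumour than in inflamed mucosa. Of 7 chains, 4 were called higher in inflamed than in normal mucosa, 5 in tumour than in normal mucosa and 5 in tumour than in inflamed mucosa, with median differences of 0.53, 1.48 and 0.68. The shares of all genes called higher in these comparisons were 13.7%, 16.4% and 2.91%. Col1a1, the main chain of type I collagen, measured 7.62, 7.91, 7.79 and 7.99 on normal arrays 1, 2, 4 and 6, 9.02, 8.96, 9.50 and 9.03 on inflamed arrays 1 to 4, and 10.35, 10.69, 10.38, 10.82 and 11.22 on tumour arrays 1, 2, 3, 4 and 6. The 3 groups form separate steps with no overlap, and the tumours were 2.96-fold above inflamed mucosa (log2 difference 1.56 ± 0.17 SE, limma adjusted p = 0.000126). Its partner chain Col1a2 measured 7.16, 7.12, 7.10 and 7.43 in normal mucosa, 9.12, 9.08, 9.35 and 9.03 in inflamed mucosa and 9.70, 10.02, 9.83, 10.16 and 10.27 in the tumours. Col1a2 has the same separate steps, with the larger step from normal to inflamed mucosa (1.94 ± 0.13) and a smaller one from inflamed mucosa to tumour (0.85 ± 0.12, adjusted p = 0.00102). Type I collagen is built from both chains, and on these arrays Col1a1 minus Col1a2 was 0.71 higher in tumour than in inflamed mucosa, with no overlap between arrays. It is one of 8 pairs of members compared this way, all chosen after their values were seen; two-sided exact permutation tests gave p = 0.0159 for Col6a3 minus Col6a2 and 0.00794, the smallest they can give, for the other pairs (0.0159 and 0.00907 adjusted over the 8). Because of that choice the p-values are no independent evidence, and pair differences are given as descriptions. Col5a2, a chain of the collagen that nucleates type I fibrils, measured 6.39, 6.75, 6.20 and 6.15 in normal mucosa, 6.86, 6.83, 7.02 and 6.89 in inflamed mucosa and 7.71, 7.96, 7.49, 7.97 and 8.14 in the tumours. It too rises in separate steps, with 1.93-fold between inflamed mucosa and tumour (0.95 ± 0.14, adjusted p = 0.00123). Its call over normal mucosa in inflamed tissue (0.53 ± 0.15, adjusted p = 0.0188) was lost with arrays centred on the median of the genes tested (0.0643).

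Col3a1, the type III chain of distensible tissue, was 0.68 ± 0.16 higher in tumour than in inflamed mucosa (adjusted p = 0.0198), with 8.69 to 9.09 on inflamed arrays and 9.26 to 10.06 on tumour arrays. Col5a1 lay at 7.25 to 7.61 on normal, 7.39 to 7.59 on inflamed and 7.69 to 8.05 on tumour arrays. Its tumour arrays lie just above all others, by 0.34 ± 0.10 over inflamed mucosa (adjusted p = 0.0479), while inflamed and normal arrays overlap (0.05, 95% interval -0.16 to 0.27). The Col5a1 call was lost on leaving out any one of 10 of the 13 arrays (adenocarcinoma 1, 2, 4 or 6, inflamed mucosa 1, 2, 3 or 4, normal mucosa 1 or 6), with adjusted p between 0.0517 and 0.128, and the Col3a1 call was lost without inflamed mucosa 2 (adjusted p = 0.0754). With the replicate number as a fixed block, adjusted p was 0.0615 for Col3a1 and 0.129 for Col5a1. That block groups arrays of all tissues by number, which stands for no known mouse or batch. Col5a1 was also lost with sex (0.0661) or age (0.0781) as a covariate, cyclic loess (0.0521), all clusters tested (0.0864) and a robust variance trend (0.0674).

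The minor chains Col5a3 and Col11a1 were not called in any comparison. Col5a3, a less widespread type V chain, measured 6.79, 7.07, 6.64 and 6.68 in normal mucosa, 6.73, 6.47, 6.59 and 6.63 in inflamed mucosa and 7.16, 7.01, 6.73, 6.89 and 7.19 in the tumours. The tumour values reach the inflamed ones at adenocarcinoma 3, and the difference of 0.39 ± 0.11 missed the threshold (adjusted p = 0.0563). It passed with the random replicate block (0.0231), array weights (0.0268), the other 3 scalings (0.0286 to 0.0475), in a fit of these 2 groups alone (0.0466), without adenocarcinoma 3 (0.0250) and without normal mucosa 2 (0.0353). Col11a1, the type XI chain best known from cartilage and from the stroma of carcinomas, measured 6.66, 6.91, 6.55 and 6.60 in normal mucosa, 6.54, 6.39, 6.54 and 6.40 in inflamed mucosa and 6.63, 6.51, 6.41, 6.38 and 6.65 in the tumours. All groups lie within a narrow range, and the tumour minus inflamed difference was 0.05 with a 95% interval of -0.15 to 0.25. Col11a1 was the one member whose inflamed arrays all lay below the normal ones, by 0.21 ± 0.10 (adjusted p = 0.119). With arrays centred on the median of the genes tested, Col5a3, Col11a1 and Col10a1 were called lower in inflamed than in normal mucosa (adjusted p = 0.0239, 0.00792 and 0.0103).

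**Figure D2:**
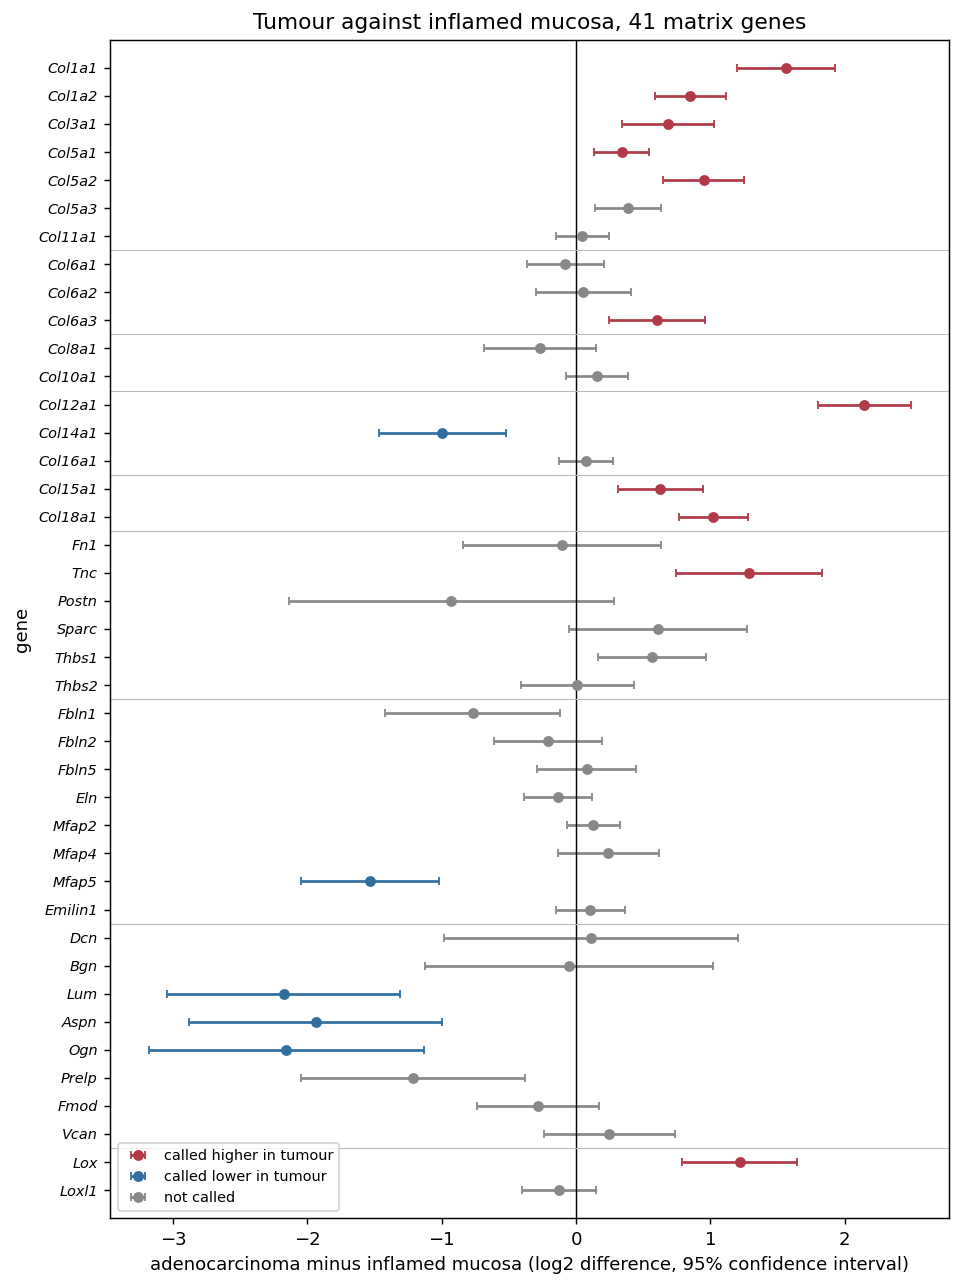
Log2 difference between adenocarcinoma (5 arrays) and inflamed mucosa (4 arrays) for each of the 41 genes, with genes on the vertical axis grouped by role; points are the fitted differences, bars 95% confidence intervals, and colours the call. Col12a1, at 2.15, lies farthest to the right, and Lum, Ogn and Aspn, between -2.18 and -1.94, farthest to the left.

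Collagen VI, the beaded microfibril collagen, is made of 3 chains here, and all of them were called higher than normal in both tissues. Beside them, 13.7% of all genes were called higher in inflamed mucosa and 16.4% in tumour. Col6a3 measured 6.60, 7.04, 6.40 and 7.0 in normal mucosa, 8.01, 8.13, 8.25 and 8.15 in inflamed mucosa and 8.36, 8.73, 8.55, 8.82 and 9.22 in the tumours. The groups do not overlap, and tumours were 1.52-fold above inflamed mucosa (0.60 ± 0.17, adjusted p = 0.0439). Col6a1 measured 7.62, 8.17, 7.83 and 8.25 in normal mucosa, 9.26, 9.64, 9.66 and 9.33 in inflamed mucosa and 9.22, 9.52, 9.41, 9.37 and 9.45 in the tumours. For Col6a1 the tumour and inflamed arrays intermix, at a difference of -0.08 (95% interval -0.37 to 0.21), and for Col6a2 the difference was 0.05 (95% interval -0.30 to 0.41). Col6a1 and Col6a2 are neighbours in RefSeq order, with 0 protein-coding genes between them, whereas Col6a3 lies elsewhere. Col6a3 minus Col6a1 was 0.68 higher in tumour than in inflamed mucosa and Col6a3 minus Col6a2 0.55 higher, with no overlap between arrays in either, as descriptions of pairs chosen after their values were seen. The Col6a3 call was lost on leaving out adenocarcinoma 2, 4 or 6 or inflamed mucosa 1, 2, 3 or 4 (adjusted p between 0.0730 and 0.108), and with the fixed replicate block (0.0525), sex as a covariate (0.0614), cyclic loess (0.0540) and all clusters tested (0.0874).

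Of the short-chain collagens, which form lattices rather than fibrils, Col8a1 was called in 1 comparison and Col10a1 in none. Col8a1, a collagen of vessel walls, measured 6.53, 7.04, 6.60 and 6.68 in normal mucosa, 7.15, 7.41, 7.45 and 7.91 in inflamed mucosa and 6.77, 6.92, 7.73, 7.32 and 7.34 in the tumours. Inflamed arrays all lie above the normal ones (0.77 ± 0.20, adjusted p = 0.0145), while the tumours span both groups. The tumour minus normal difference of 0.50 ± 0.19 missed the threshold (adjusted p = 0.0576), and passed without adenocarcinoma 1 (0.0233) or 2 (0.0497), inflamed mucosa 4 (0.0457) or normal mucosa 2 (0.0438). Col10a1, the collagen of hypertrophic cartilage, measured 6.05, 6.40, 5.91 and 5.99 in normal mucosa, 6.02, 5.72, 5.91 and 5.78 in inflamed mucosa and 6.21, 5.98, 5.98, 5.91 and 5.99 in the tumours. All 13 values lie close above the level of absent transcripts, and the groups overlap.

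Fibril-associated collagens, which sit on the surface of type I fibrils, moved in opposite directions between tumour and inflamed mucosa. Col12a1 measured 5.85, 5.90, 5.77 and 6.38 in normal mucosa, 8.16, 8.59, 8.50 and 8.45 in inflamed mucosa and 10.24, 10.73, 10.27, 10.88 and 10.75 in the tumours. The 3 groups are far apart, and the step from inflamed mucosa to tumour was 4.43-fold (2.15 ± 0.16, adjusted p = 9.05e-06), the largest rise among the 41 genes in this comparison. In the 4 tumours with an inflamed sample of the same number it was 2.08, 2.14, 1.77 and 2.43. Col14a1 measured 6.52, 6.46, 6.63 and 6.83 in normal mucosa, 7.56, 8.49, 8.73 and 8.84 in inflamed mucosa and 7.32, 7.03, 7.69, 7.58 and 7.42 in the tumours. Inflamed mucosa 2, 3 and 4 lie above all tumours, inflamed mucosa 1 lies among them, and the difference was -0.99 ± 0.22 (adjusted p = 0.0140; 0.0532 without inflamed mucosa 4). Relative to normal mucosa Col14a1 was 3.47-fold higher in inflamed tissue and 1.74-fold higher in tumour, where the second call was lost with array weights (adjusted p = 0.0626). Col16a1, the remaining chain, measured 7.0, 7.27, 6.85 and 6.97 in normal mucosa, 6.95, 6.94, 7.0 and 6.98 in inflamed mucosa and 7.05, 7.01, 6.89, 7.0 and 7.26 in the tumours. It was level across the groups within its spread, at 0.07 between tumour and inflamed mucosa (95% interval -0.13 to 0.28).

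The multiplexin collagens of the zone next to basement membranes were both called higher in all 3 comparisons. Shares of all genes called higher were 13.7% (inflamed over normal), 16.4% (tumour over normal) and 2.91% (tumour over inflamed). Col18a1, whose end fragment is endostatin, measured 7.05, 7.51, 7.08 and 7.26 in normal mucosa, 8.22, 8.12, 8.23 and 7.85 in inflamed mucosa and 9.11, 9.39, 8.98, 9.08 and 9.08 in the tumours. Each group is clear of the others, with 2.03-fold between inflamed mucosa and tumour (1.02 ± 0.12, adjusted p = 0.000210). Col15a1 measured 6.76, 7.29, 6.81 and 7.18 in normal mucosa, 7.55, 7.45, 7.55 and 7.58 in inflamed mucosa and 7.99, 8.38, 7.74, 8.30 and 8.39 in the tumours. Its arrays are separate too, but by less, with 0.63 ± 0.15 between inflamed mucosa and tumour (adjusted p = 0.0196) and 0.52 ± 0.16 between normal and inflamed mucosa (adjusted p = 0.0251). The first of these Col15a1 calls was lost without adenocarcinoma 2 or 6 or inflamed mucosa 2 (adjusted p = 0.0538, 0.0509 and 0.0661). The second was lost without inflamed mucosa 1 or 4 or normal mucosa 1 or 4 (adjusted p between 0.0521 and 0.0673), and with arrays centred on the median of the genes tested (0.0838). Endothelial markers, which mark cells next to basement membranes, averaged 7.96 to 8.55 on inflamed and 8.31 to 8.64 on tumour arrays. Of 12 such markers 3 (Eng, Cdh5 and Vwf) were called higher in tumour than in inflamed mucosa, beside 2.91% of all genes. The part of endothelial cells in these values was not tested.

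Adhesive and matricellular glycoproteins rose over normal mucosa by several log2 units, and all 6 were called higher in both tissues, with medians of 3.62 in inflamed mucosa and 3.97 in tumour. Among all genes 13.7% and 16.4% were called higher there. Tnc, tenascin-C of healing wounds and tumour stroma, measured 5.49, 5.48, 5.66 and 6.86 in normal mucosa, 9.12, 9.60, 9.02 and 9.48 in inflamed mucosa and 10.20, 10.77, 10.46, 10.59 and 10.95 in the tumours. Inflamed and tumour arrays do not overlap, and tumours were 2.44-fold higher (1.29 ± 0.25, adjusted p = 0.00763), with 1.08, 1.17, 1.44 and 1.12 in the same-numbered samples. Fn1, fibronectin, was not called between tumour and inflamed mucosa. It measured 7.03, 6.88, 7.22 and 9.02 in normal mucosa, 11.68, 12.37, 12.38 and 11.84 in inflamed mucosa and 11.73, 12.07, 12.09, 12.08 and 11.85 in the tumours, and is shown for its contrast with Tnc. Tumour and inflamed arrays of Fn1 intermix, far above normal mucosa, with a difference of -0.10 (95% interval -0.84 to 0.63). Tnc minus Fn1 was 1.39 higher in tumour than in inflamed mucosa with no overlap between arrays, as a description of a pair chosen after its values were seen.

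Postn and Sparc separated tumour from inflamed mucosa on every array without being called. Postn, periostin, measured 5.24, 6.0, 6.78 and 9.23 in normal mucosa, 10.67, 11.53, 11.45 and 11.41 in inflamed mucosa and 10.18, 10.19, 10.34, 10.60 and 10.38 in the tumours. All tumours lie below all inflamed arrays, by 0.93 on average, while the normal arrays are spread widely below both. Sparc, a collagen-binding glycoprotein, measured 7.17, 7.09, 7.08 and 8.96 in normal mucosa, 11.14, 11.53, 11.44 and 11.38 in inflamed mucosa and 11.84, 11.87, 11.80, 12.17 and 12.24 in the tumours. All tumours lie above all inflamed arrays, by 0.61 on average, and 1 normal array stands far above the other 3. The fit of 3 groups pools that spread, and gave adjusted p = 0.427 for Postn and 0.311 for Sparc. Without normal mucosa 6 the same differences had adjusted p = 0.0488 and 0.00568, and in a fit of tumour and inflamed arrays alone 0.00912 and 0.0119. Thbs1 was 0.56 ± 0.19 higher in tumour (adjusted p = 0.0922), and was called in the fit of these groups alone (0.0485), with the random replicate block (0.0373) and with array weights (0.0481). Thbs2 differed by 0.01 (95% interval -0.41 to 0.43). Both are thrombospondins, which bind matrix and growth factors.

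Genes of elastic fibres and microfibrils were raised in inflamed mucosa, with 8 of 8 measured called higher than normal and a median of 1.61, against 7 of 8 and a median of 0.86 in tumour. Between tumour and inflamed mucosa 1 of the 8 was called, and it was lower, beside 2.91% of all genes called higher and 4.21% lower. Over normal mucosa 13.7% of all genes were called higher in inflamed mucosa and 16.4% in tumour. Mfap5, a microfibril-associated glycoprotein, measured 6.38, 6.13, 5.95 and 6.51 in normal mucosa, 7.19, 8.19, 7.99 and 8.67 in inflamed mucosa and 6.33, 6.12, 6.61, 6.85 and 6.49 in the tumours. Tumour and normal arrays intermix and every inflamed array lies above them, by 1.53 over the tumours (-1.53 ± 0.24 as tumour minus inflamed, adjusted p = 0.00177). Fbln1, fibulin-1, measured 7.71, 7.09, 6.5 and 8.06 in normal mucosa, 8.53, 9.58, 8.78 and 9.57 in inflamed mucosa and 8.03, 8.46, 8.63, 8.63 and 7.97 in the tumours. The tumours overlap with both other groups, at -0.77 ± 0.30 from inflamed mucosa (adjusted p = 0.166), and the Fbln1 call over normal mucosa (1.00 ± 0.30, adjusted p = 0.0207) was lost without normal mucosa 2 (0.0646) or 4 (0.0620) and with the fixed replicate block (0.0514). Mfap4, a microfibril protein abundant in smooth muscle layers, measured 7.41, 7.35, 7.13 and 7.24 in normal mucosa, 8.43, 9.15, 8.72 and 8.62 in inflamed mucosa and 8.98, 9.22, 8.65, 9.40 and 8.60 in the tumours. Both tissues are above all normal arrays and intermix with each other. Elastin itself (Eln) rose over normal mucosa by 0.61 ± 0.12 in inflamed mucosa and 0.47 ± 0.12 in tumour. Emilin1, which lies between elastin and microfibrils, rose by 0.61 and 0.72. The fibulins Fbln2 and Fbln5, which tie elastin to other matrix, rose over normal mucosa by 1.61 to 2.01 in the 2 tissues. Mfap2, another microfibril protein, rose by 0.29 ± 0.10 in inflamed mucosa (adjusted p = 0.0393) and 0.42 ± 0.09 in tumour (adjusted p = 0.00295). The first Mfap2 call was lost without inflamed mucosa 2, 3 or 4 or normal mucosa 1, 4 or 6 (adjusted p between 0.0614 and 0.0937) and with the fixed replicate block (0.134), and in 8 other settings beside a required 2-fold change (0.0522 to 0.378).

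Among proteoglycans, calls between inflamed mucosa and tumour were all downward. All 8 were called higher in inflamed than in normal mucosa (median 3.60), 6 were called higher in tumour than in normal mucosa (median 2.47), and 3 were called lower in tumour than in inflamed mucosa (median of the 8, -0.75). The shares of all genes called in those directions were 13.7%, 16.4% and 4.21%. Lum, lumican, which binds collagen fibrils, measured 4.71, 4.76, 4.82 and 5.56 in normal mucosa, 7.31, 8.45, 8.68 and 8.92 in inflamed mucosa and 5.54, 5.22, 7.36, 6.54 and 6.14 in the tumours. Inflamed arrays are high, normal arrays are within background, and the tumours are scattered. Adenocarcinomas 1 and 2 are within background below normal mucosa 6, and adenocarcinoma 3 is just above inflamed mucosa 1. Lum was lower in tumour than in inflamed mucosa, 4.52-fold as measured (-2.18 ± 0.40, adjusted p = 0.00503), a size that rests partly on those background values. Ogn, osteoglycin, measured 4.97, 4.80, 5.44 and 7.67 in normal mucosa, 9.42, 10.59, 10.43 and 10.33 in inflamed mucosa and 7.89, 7.78, 8.28, 8.65 and 7.58 in the tumours. Tumours lie wholly below inflamed mucosa, 4.46-fold (-2.16 ± 0.48, adjusted p = 0.0143), and adenocarcinoma 6 lies below normal mucosa 6. Aspn, asporin, a close relative of decorin, measured 3.60, 4.63, 3.92 and 6.08 in normal mucosa, 8.16, 9.67, 9.22 and 9.44 in inflamed mucosa and 7.06, 7.16, 7.36, 7.78 and 6.56 in the tumours. The 3 groups of Aspn are separate, and tumours were 3.84-fold below inflamed mucosa (-1.94 ± 0.44, adjusted p = 0.0160). Without inflamed mucosa 2 adjusted p was 0.0535 for Ogn and 0.0630 for Aspn, and without inflamed mucosa 4 it was 0.0547 for Aspn. Against normal mucosa, the Lum call in tumour (1.20 ± 0.40, adjusted p = 0.0333) was lost without adenocarcinoma 3, 4 or 6 or normal mucosa 1, 2 or 4, with adjusted p between 0.0518 and 0.0865, and with all clusters tested (0.0543) and array weights (0.118).

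Other proteoglycans were not called between tumour and inflamed mucosa. Dcn, decorin, lay at 11.82, 12.67, 12.57 and 12.49 in inflamed mucosa and 12.41, 12.50, 12.43, 12.65 and 12.49 in the tumours, after 7.68, 8.21, 7.51 and 10.88 in normal mucosa. Tumour and inflamed arrays of Dcn overlap, with a difference of 0.11 (95% interval -0.99 to 1.21), which allows a change of either sign. Bgn, biglycan, differed by -0.05 (95% interval -1.12 to 1.02), and Vcan, the large hyaluronan-binding versican, by 0.25 (95% interval -0.24 to 0.73). Prelp, which anchors basement membranes to connective tissue, was 1.21 ± 0.39 lower in tumour than in inflamed mucosa and not called (tumour minus inflamed adjusted p = 0.0806). It passed without inflamed mucosa 1 (0.0469) or normal mucosa 1 (0.0332), with the fixed (0.0397) and random (0.0320) replicate block, in the fit of these groups alone (0.0340) and with array weights (0.0440). Prelp and Fmod (fibromodulin, which regulates fibril thickness) also missed the threshold for tumour against normal mucosa, at 1.02 ± 0.39 and 0.54 ± 0.21 (adjusted p = 0.0552 and 0.0576). Prelp passed there without adenocarcinoma 1 (0.0462) or 6 (0.0480) or normal mucosa 4 (0.0481) or 6 (0.0172), and Fmod without adenocarcinoma 1 (0.0371) or inflamed mucosa 1 (0.0476) or 4 (0.0477). With the fixed replicate block both passed, at 0.0406 and 0.0474, as they did with sex as a covariate (0.0488 and 0.0414). Prelp also passed without the dimmest genes (0.0490), and Fmod with cyclic loess (0.0480).

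Smooth muscle markers were lower in tumour than in inflamed mucosa too, where 2.91% of all genes were called higher and 4.21% lower. Of 12 smooth muscle markers 11 were called lower in tumour than in inflamed mucosa and 0 higher, led by Des (-3.25), Cnn1 (-3.05) and Myh11 (-2.70), which encode contractile and filament proteins. Of 7 measured markers of enteric neurons and glia 5 were called lower, among them the neuropeptide gene Vip (-3.27 as measured, with a tumour mean of 5.42 within background) and Elavl4, which was above background on 0 arrays. The mean of the 7 was 6.67 to 7.28 on inflamed and 5.92 to 6.09 on tumour arrays. Fibroblast markers went both ways, with Pdgfrb (0.71) and Prrx1 (0.64) called higher and Tcf21 (-0.83) and Pi16 (-0.79) lower, and 9 of 13 not called. Pdgfrb is a growth factor receptor of mesenchymal cells, and Tcf21 a transcription factor of fibroblasts. The part of muscle, nerve or fibroblast content in the lower proteoglycans and the higher collagens was not tested.

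**Figure D3:**
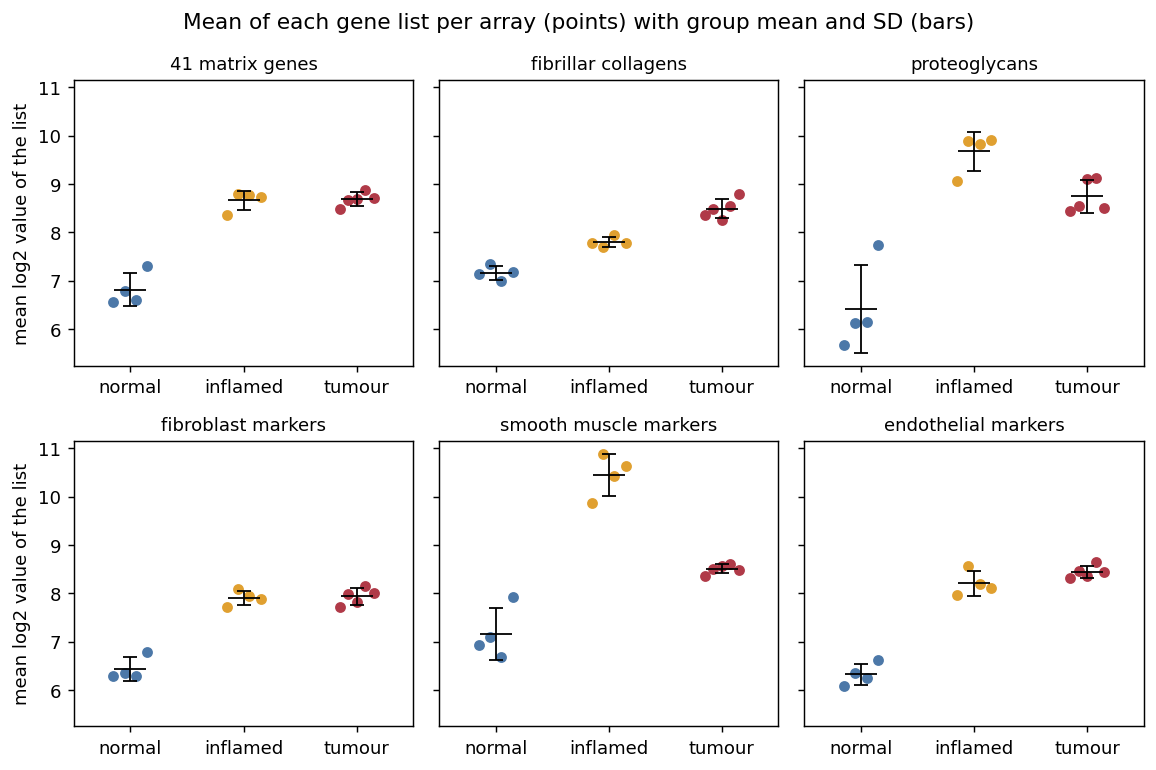
Mean log2 value on each array of the 41 matrix genes, the fibrillar collagens, the proteoglycans and the markers of fibroblasts, smooth muscle and endothelium, with points for arrays and bars for the group mean and SD. Fibrillar collagens are highest in tumours (8.27 to 8.80), proteoglycans in 3 of the 4 inflamed arrays (9.83 to 9.91), and smooth muscle markers in all 4 inflamed arrays (9.86 to 10.88).

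Several of the proteoglycan genes are neighbours on their chromosomes. In RefSeq order Dcn and Lum, Prelp and Fmod, and Col3a1 and Col5a2 have 0 protein-coding genes between them, and Aspn and Ogn have 1, Omd. Dcn and Lum, although adjacent, differed between tumour and inflamed mucosa by 0.11 and -2.18. Next to Aspn, Ecm2, a leucine-rich matrix protein gene that is no member, was 1.27 ± 0.22 higher in inflamed than in normal mucosa (adjusted p = 0.000842) and -1.23 ± 0.20 from inflamed mucosa to tumour (adjusted p = 0.00257). All normal and tumour arrays and inflamed mucosa 1 read below 5.57 for Ecm2, so these sizes are measured against background. Omd, between Aspn and Ogn, lay at 3.80 to 4.20 on all 13 arrays, within background, and was not called.

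Of the lysyl oxidases, which cross-link collagen and elastin, Lox rose in tumour over inflamed mucosa and Loxl1 was not called. Lox measured 4.96, 4.86, 4.81 and 4.95 in normal mucosa, 7.15, 8.01, 7.91 and 7.64 in inflamed mucosa and 8.46, 9.19, 8.51, 9.37 and 8.95 in the tumours. Normal arrays are within background and the other groups follow in separate steps, with 2.33-fold between inflamed mucosa and tumour (1.22 ± 0.20, adjusted p = 0.00239) and 1.31, 1.18, 0.60 and 1.73 in the same-numbered samples. Loxl1, which acts chiefly on elastin, measured 6.46, 6.35, 6.33 and 6.41 in normal mucosa, 7.57, 8.07, 8.0 and 7.96 in inflamed mucosa and 7.46, 7.83, 7.73, 8.13 and 7.70 in the tumours. Both tissues are above normal mucosa and overlap with each other (-0.13, 95% interval -0.40 to 0.15). Lox minus Loxl1 was 1.35 higher in tumour than in inflamed mucosa, with no overlap between arrays, again a description of a pair chosen after its values were seen.

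**Figure D4:**
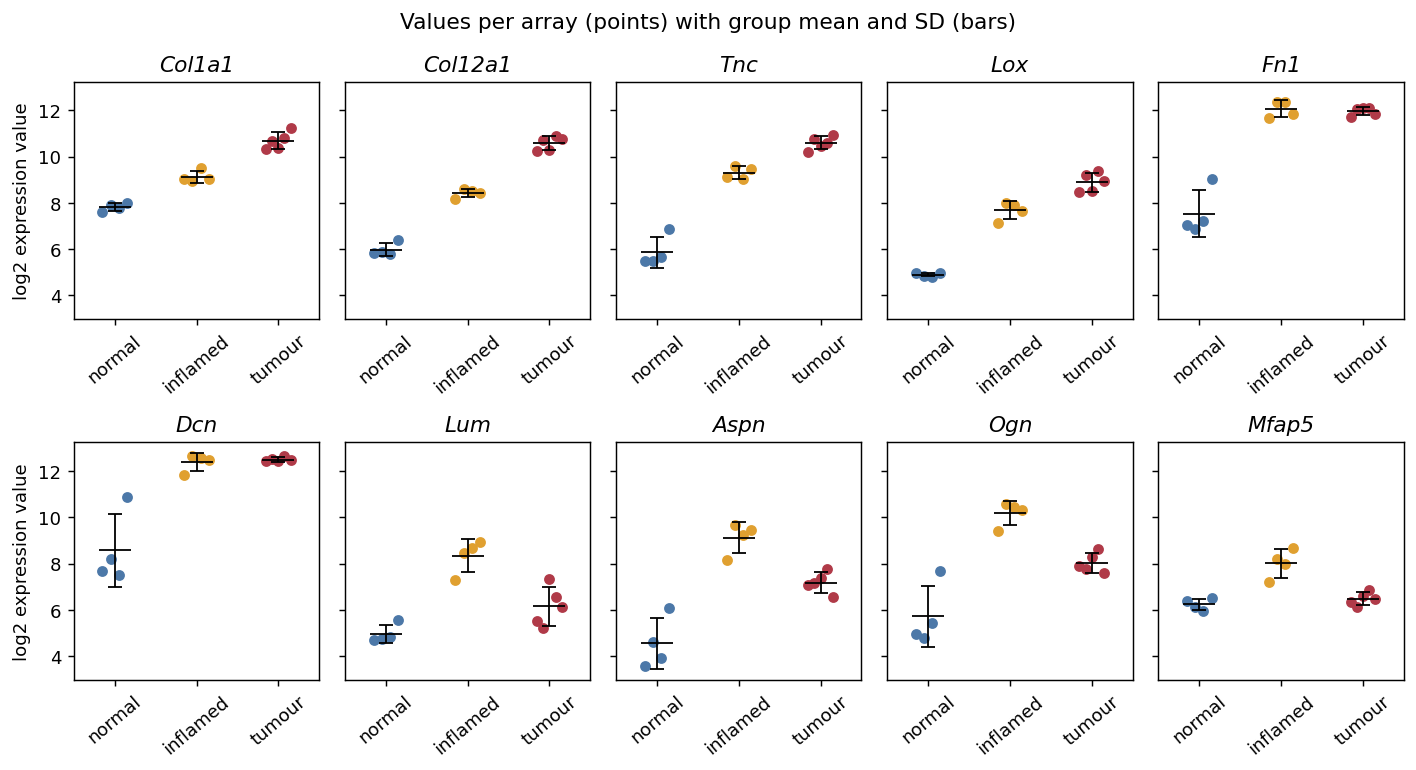
Log2 expression on each array for 10 matrix genes, with points for the 4 normal, 4 inflamed and 5 tumour arrays and bars for the group mean and SD. Col1a1, Col12a1, Tnc and Lox step up from normal to inflamed to tumour, Fn1 and Dcn overlap between inflamed mucosa and tumour, and Lum, Aspn, Ogn and Mfap5 are highest in inflamed mucosa.

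One array shaped the size of several rises over normal mucosa. Normal mucosa 6 was the highest normal array in 22 of the 41 genes, at 10.88 for Dcn, 10.33 for Bgn, 9.23 for Postn and 9.02 for Fn1, where the next normal arrays read 8.21, 7.88, 6.78 and 7.22. Its fibroblast and smooth muscle marker means, 6.79 and 7.92, were also the highest of the normal arrays, and their part was not tested. Without it the members called were 35 higher in inflamed mucosa, 34 higher in tumour, and 11 higher and 6 lower between tumour and inflamed mucosa. The fold over normal mucosa then changed for Postn from 21.9 to 38.2 in inflamed mucosa and from 11.5 to 20.1 in tumour. For Dcn it changed from 14.1 to 24.1 and from 15.2 to 26.0, and for Bgn from 15.3 to 25.6 and from 14.8 to 24.6. For Ogn it changed from 22.2 to 34.8 and from 4.97 to 7.81. Members above the level of absent transcripts numbered 33, 36, 36 and 39 on normal arrays, 41 on each inflamed array, and 40, 40, 41, 41 and 41 on the tumours, so the folds of Lox, Lum, Tnc, Aspn, Ogn, Vcan, Postn and Fmod over normal mucosa start from values of which at least 1 is within background, where differences are compressed.

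Enzymes that make and process collagen were also raised over normal mucosa. Of 28 listed genes for hydroxylases, chaperones and processing proteases 26 were measured. Of these, 15 were called higher and 1 lower in inflamed than in normal mucosa (median 0.42), beside 13.7% and 13% of all genes. In tumour 17 were called higher and 1 lower than in normal mucosa (median 0.70), beside 16.4% and 19.4%. In inflamed mucosa Plod2 (2.54 as measured, from a normal mean of 5.38 within background), which hydroxylates lysines of the collagen ends used for cross-links, Pcolce (1.92), an enhancer of procollagen cleavage, and Crtap (1.51), part of a prolyl hydroxylase complex, led the list. In tumour Plod2 (2.15, from the same normal values), Pcolce (2.03) and Pcolce2 (1.96) did. The genes called lower were Mia2, an export factor, in inflamed mucosa (-0.64) and P4ha1, a prolyl hydroxylase subunit, in tumour (-0.74). Between tumour and inflamed mucosa 2 were called higher, Mia2 (0.69 ± 0.15, adjusted p = 0.0116) and Bmp1 (0.65 ± 0.18, adjusted p = 0.0453), the protease that cleaves procollagen ends, and 0 lower. Calls in either direction were 7.69% of the 26, near the 7.12% of all genes.

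Most receptors for collagen and matrix glycoproteins were raised over normal mucosa as well. Of 18 receptor genes, 12 were called higher and 2 lower in inflamed than in normal mucosa (median 0.92), beside 13.7% and 13% of all genes. The 2 lower ones were Sdc4 (-0.53) and Ddr1 (-0.49), and neither was called in tumour against normal mucosa (-0.17 and -0.07). In tumour 13 were called higher and 0 lower than in normal mucosa (median 1.08), beside 16.4% and 19.4%. Ddr2, a receptor kinase for fibrillar collagen, led in inflamed mucosa (2.91), followed by the integrin subunits Itga1 (2.28) and Itga5 (2.02), which serve collagen and fibronectin receptors. In tumour the leading genes were Itga2 (2.67), a collagen receptor subunit, Cd44 (2.61), the hyaluronan receptor, and Itga1 (2.23). Between tumour and inflamed mucosa 3 receptors were called higher, Itga2 (1.5 ± 0.18, adjusted p = 0.000210), Itgav (0.88 ± 0.16, adjusted p = 0.00524) and the collagen receptor kinase Ddr1 (0.42 ± 0.09, adjusted p = 0.0112). The 1 called lower was Itga8 (-1.76 ± 0.19, adjusted p = 0.000107), an integrin subunit of smooth muscle and other mesenchymal cells. Of all genes, 2.91% were called higher and 4.21% lower between tumour and inflamed mucosa.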

How the data were processed

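RNA of 13 rectal samples was measured on 1-colour Affymetrix Mouse Gene 1.0 ST arrays. The values are the log2 RMA expression values per transcript cluster deposited by the authors, made with Affymetrix Expression Console 1.1 after scans with AGCC 2.0, per the series' design text. Partek is also named in the submitters' processing notes, without a role. Because RMA gives the probe intensities of all arrays one distribution, it removes differences in total RNA. The summarised values used here do not share one distribution, with array medians of 6.41 to 6.59. The background step of RMA compresses differences of dim genes. Tumours were located on sections of 5 µm and cut from sections of 50 to 100 µm, per the labels' protocols. The number of arrays limits the precision.

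Of 35556 clusters, 21789 name 1 gene in the platform annotation, 1621 several and 12146 were not listed. Symbols were updated by Entrez identifier (21698 matched RefSeq GRCm38.p6), and the brightest cluster on average stood for each gene, giving 19938 genes. Each measured member had 1 such cluster. No filter was applied. One limma fit (3.58.1, R 4.3.3; lmFit, eBayes) of the 3 groups was used, tested on simulated data first. The members and gene lists were chosen with earlier results of these data known.

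Values were given array by array for the members with the largest tumour minus inflamed differences in each role group (3 in groups of 6 or more, otherwise 2), members called in opposite directions, and members never called, and from other lists for the 3 largest called differences per comparison. Further values, pairs of members and neighbouring genes were chosen after values were seen.

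Tumour and inflamed samples of the same number have the same sex and age in the labels, but normal mucosa 1, 2 and 4 match those numbers too. Correlations of deviations from group means were 0.319, 0.198, 0.199 and 0.387 for tumour and inflamed samples of the same number. For different numbers they were -0.318 to 0.185. Tumour and normal arrays of different numbers reached 0.283, so these values are weak evidence of pairing. The main fit holds no pairing, since the labels do not state it. Tumour and inflamed samples were treated as pairs only in the replicate blocks and in the differences given by number. Normal arrays (-0.126 to 0.0413 with the same number) were grouped by number only in the fixed replicate block. That block joins adenocarcinoma 6 and normal mucosa 6, from mice of 80 and 70 weeks, so its groups are no known mice or batches. Calls lost or gained with it show only how results move under that grouping. Replicate blocks, covariates, scalings, filters, variance models and leaving out each array were the alternatives.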

Additional observations from a re-analysis of the deposited data

Results flagged for a closer look

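Among 126 sets of values (each measured gene in each group, and the group means of the set), 8 held a sample whose distance from its nearest neighbour was large against the range of its group by Dixon's criterion at 95%, which chance alone exceeds in about 1 in 20 sets. Of the 8, 4 were in normal mucosa 6. They were Fn1 at 9.02 (next 7.22), Sparc at 8.96 (next 7.17), Tnc at 6.86 (next 5.66) and Lum at 5.56 (next 4.82), each the highest normal array. Normal mucosa 4 was lowest for Eln at 6.73, where the next normal array read 7.06. Inflamed mucosa 1 was lowest for Postn at 10.67, below 11.41, and was the lowest inflamed array in 27 of the 41 genes. Inflamed mucosa 3 was highest for Col1a1 at 9.50, above 9.03. Adenocarcinoma 1 was highest for Col10a1 at 6.21, above 5.99, in a gene close to background.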

How the results depend on the processing

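Over 27 alternatives, 3161 of 3321 member differences kept their side of the threshold, 118 lost the call, 42 gained one and 0 called differences reversed. Among the 3161, 25 differences called in neither fit changed sign. With a required change of over 2-fold, members called higher numbered 17 (278 genes in all) in inflamed against normal mucosa, 18 (421 genes) in tumour against normal mucosa and 1 (34 genes) in tumour against inflamed mucosa, with 0 lower, because the test then asks for more. With arrays centred on the median of the genes tested, an alternative chosen after seeing the data, the median of all genes moved to -0.28, -0.24 and 0.05 in the 3 comparisons, members called lower numbered 3 and 1 against normal mucosa, and genes called 11385 and 11103, where the cause was not tested. Between tumour and inflamed mucosa the random replicate block (consensus correlation 0.296) called 2279 genes, 13 members higher and 6 lower, and array weights called 2296 genes. The fixed replicate block called 8 members higher and 6 lower between tumour and inflamed mucosa, 35 higher in inflamed and 34 in tumour over normal mucosa, and its changed calls are those named beside each gene. Leaving out 1 array gave 34 to 36 members higher and 3524 to 5786 genes in inflamed against normal mucosa, and 32 to 36 members and 5344 to 7645 genes in tumour against normal mucosa, with 0 members lower in both. Between tumour and inflamed mucosa it gave 7 to 12 members higher, 3 to 6 lower and 775 to 1652 genes, with the lowest 3 counts all without inflamed mucosa 2. Without inflamed mucosa 4 the genes called there were 857 and the members called lower 3. Signal over background limits the folds of members that read below 5.57 in normal mucosa.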
